A study of Mus musculus with 2 samples.

Results

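The cell cycle genes described here were 48 genes chosen by name: 28 act in G2 and mitosis, 19 act at entry into and during S phase, and *Stmn1* belongs to neither side. All 48 were found among the 31053 genes of the count tables. They were read in single CD45+ cells sorted from early mouse melanomas, and a cell was set apart when it held transcripts of 3 or more of them. This held for 2328 of 10363 cells, 1174 of 5504 in one library and 1154 of 4859 in the other.

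The tumors were grown for 4 days in C57BL/6 hosts that were 8 weeks old, from *Ptgs*-/- melanoma cells, made by CRISPR from a Braf-mutant mouse melanoma line so that the cyclooxygenase genes *Ptgs1* and *Ptgs2* are lost. The genotype field of the labels reads wildtype tumor cells for both samples, against the title and the design text. Hosts were either untreated (control) or received 200 µg anti-NK1.1 and 30 µg anti-asialo GM1 on day 0 and day 2 (NK cell-depleted), tumors were pooled within a group, and parental melanoma cells were added to both sorted samples. Each group was 1 10x Genomics 3′ library, so no difference between the libraries below has a replicate check or a test, and their 95% intervals cover counting error only. UMIs (unique molecular identifiers, 1 per captured transcript) of 1 cell are not independent draws of a condition either.

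The control library held 30836363 UMIs with a median of 4318 per cell, and the NK cell-depleted library held 33055233 with a median of 5156. Both libraries held few cell barcodes in common, 5 among the kept cells. *Ncr1*, which encodes an activating receptor of NK cells, had 486 UMIs in the control library and 0 in the NK cell-depleted library, as the labels would have it. *Ptgs2* stood at 530 and 789 UMIs per 1000000 in melanoma-like cells, which checks nothing, since both libraries hold added parental cells and 3′ reads need not cross an edited site. Cells were grouped into 21 clusters without the 48 members and 124 other listed cell cycle genes, and 19 of them were given 9 class names by marker genes. Monocyte/macrophage-like cells were the most numerous, with 3608 and 3285 cells in the control and NK cell-depleted libraries. Melanoma-like cells numbered 123 and 266, and parental melanoma cells had been added to both samples after the CD45+ sort.

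A cell that divides copies its DNA in S phase and separates the copies in mitosis. Origins are licensed by the MCM helicase, cyclin E starts the phase, and ribonucleotide reductase and thymidylate synthase supply the nucleotides. Cyclin A and cyclin B with Cdk1 then drive mitosis, in which Aurora and Polo kinases, kinetochore proteins and kinesins align the chromosomes and the anaphase-promoting complex ends the phase. Most of these genes are transcribed in waves by E2F factors before S phase and by the MuvB complexes with B-Myb and FoxM1 before mitosis. In tumors, dividing leukocytes can be lymphocytes that expand after activation, DC precursors, or macrophages that renew in the tissue, whereas mature neutrophils do not divide.

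The S phase and mitosis members differed in the motifs of their promoters. RefSeq start sites (GRCm38.p6) were on hand for 40 of the 48 members, and 250 bases before to 50 bases after each start were searched on both strands. The CHR element (TTTGAA or TTCGAA), which MuvB complexes bind, stood in 20 of 24 mitosis members (83.3%) and in 3 of 16 S phase members (18.8%), against 21.7% of all 27025 genes. The CCAAT box, bound by NF-Y, stood in 22 of 24 mitosis members (91.7%) and 10 of 16 S phase members (62.5%), against 41.1% of all genes. Both elements together were found in 83.3% of mitosis members, 12.5% of S phase members and 8.61% of all genes. The E2F letters searched (TTTCCCGC, TTTGGCGC, TTTCGCGC or TTCCCGCC, which can overlap each other) went the other way, with 8 of 16 S phase members (50%), 1 of 24 mitosis members (4.17%, *Cdk1*) and 4.00% of all genes. *Ccnb1*, *Birc5*, *Cenpe* and *Nusap1* were the mitosis members with no CHR match, which says only that these letters were not in the window.

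The 150 bases before the start are shown for the members of each phase with the most UMIs among those with a start site, and for *Mki67*, because their motifs can be read in place. Each runs 5′ to 3′ on the strand of its gene and ends at the base before the start, with motif matches in capitals (the CCAAT, CHR and E2F letters given above, read on either strand). The stretches lie at chr5:30666736-30666885 (+ strand) for *Cenpa*, chr11:99024190-99024339 (- strand) for *Top2a*, chr2:164769779-164769928 (+ strand) for *Ube2c* and chr7:135716380-135716529 (- strand) for *Mki67*. Those of the S phase members lie at chr2:132253181-132253330 (- strand) for *Pcna*, chr1:20820313-20820462 (- strand) for *Mcm3* and chr7:102441545-102441694 (+ strand) for *Rrm1*.
Cenpa: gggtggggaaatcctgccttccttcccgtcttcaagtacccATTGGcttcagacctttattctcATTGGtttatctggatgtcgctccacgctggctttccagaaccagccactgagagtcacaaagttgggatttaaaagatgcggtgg
Top2a: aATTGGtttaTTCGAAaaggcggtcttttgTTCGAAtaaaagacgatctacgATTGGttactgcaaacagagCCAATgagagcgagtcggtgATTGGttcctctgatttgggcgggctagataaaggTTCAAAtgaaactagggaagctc
Ube2c: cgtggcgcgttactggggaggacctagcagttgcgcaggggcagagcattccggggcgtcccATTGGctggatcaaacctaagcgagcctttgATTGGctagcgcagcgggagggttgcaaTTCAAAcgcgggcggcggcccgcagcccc
Mki67: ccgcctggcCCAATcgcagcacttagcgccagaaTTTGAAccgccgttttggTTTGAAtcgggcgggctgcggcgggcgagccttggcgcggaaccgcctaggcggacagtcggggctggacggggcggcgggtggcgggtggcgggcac
Pcna: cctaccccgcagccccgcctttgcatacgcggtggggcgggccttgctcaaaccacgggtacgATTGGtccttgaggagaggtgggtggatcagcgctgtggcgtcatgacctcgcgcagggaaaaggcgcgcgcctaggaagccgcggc
Mcm3: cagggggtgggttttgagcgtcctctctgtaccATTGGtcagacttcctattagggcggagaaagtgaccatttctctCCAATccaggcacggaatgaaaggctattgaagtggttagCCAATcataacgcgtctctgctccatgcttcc
Rrm1: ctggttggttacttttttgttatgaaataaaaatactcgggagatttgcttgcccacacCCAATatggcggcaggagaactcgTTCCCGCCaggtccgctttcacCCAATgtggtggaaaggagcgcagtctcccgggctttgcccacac
*Top2a* held 3 CHR matches and 4 CCAAT boxes in this stretch, *Mki67* 2 CHR matches and 1 CCAAT box, and *Ube2c* 1 CHR match and 2 CCAAT boxes. *Cenpa* held 2 CCAAT boxes and no CHR match in these 150 bases. *Pcna* held 1 CCAAT box and *Mcm3* held 3, and *Rrm1* held the single E2F match of the stretches shown.

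**Figure D1:**
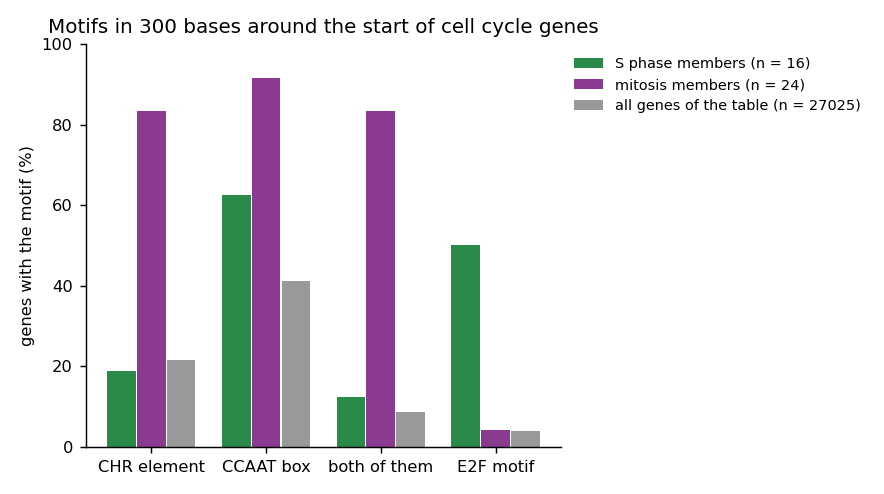
Share of genes (%, vertical axis) whose window from 250 bases before to 50 bases after a start holds each motif, for mitosis members, S phase members and all genes of the promoter table. CHR and CCAAT elements together stood in 83.3% of mitosis members, and the E2F letters in 50% of S phase members.

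Cells with 3 or more members were found in every leukocyte class in which the genes could be read, and they made up very different shares of them. In the control library they made up 20.9% of monocyte/macrophage-like cells (753 of 3608, 95% Clopper-Pearson interval 19.6 to 22.2), 39.1% of conventional DC-like cells (133 of 340), 18.0% of NK-like cells (98 of 544) and 14.6% of T-like cells (42 of 287). In the NK cell-depleted library the shares were 20.6% of monocyte/macrophage-like cells (677 of 3285, 19.2 to 22.0), 37.7% of conventional DC-like cells (144 of 382) and 19% of T-like cells (42 of 221), and a single NK-like cell was left. Neutrophil-like cells, the class that should lack these transcripts, gave the background: 1 of 362 cells (0.276%) and 3 of 462 cells (0.649%), at median depths of 1157.5 and 1298.5 UMIs. That control cell also held 5 of 9 NK markers, and the 3 NK cell-depleted cells together held 10 of 12 T cell markers. Whether they were mixed droplets was not tested. At the other end 120 of 123 and 260 of 266 melanoma-like cells held 3 or more members (97.6% and 97.7%), at median depths of 27941 and 27809 UMIs. A deep cell has more chances to show 3 genes, so these shares cannot be ordered between classes as they stand.

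Each cell with 2000 or more UMIs was drawn down to that depth at random. The 1208 control and 939 NK cell-depleted cells that were shallower were left out. This brought the classes to 1 depth but kept unlike parts of them. In the control library it kept 3273 of 3608 monocyte/macrophage-like, 304 of 544 NK-like and 159 of 287 T-like cells. Control cells with 3 or more members were deeper than the others, with medians of 3251.5 against 1985 UMIs in NK-like and 2404 against 2003 in T-like cells. The NK-like and T-like shares at 2000 UMIs are therefore those of their deeper cells. At this depth 17.8% of control conventional DC-like cells (60 of 338), 17.1% of control NK-like cells (52 of 304), 15.7% of control T-like cells (25 of 159) and 19.5% of control melanoma-like cells (24 of 123) held 3 or more members, and their intervals overlapped. Monocyte/macrophage-like cells were well under them at 2000 UMIs, with 5.90% in the control library (193 of 3273, 5.11 to 6.76) and 4.34% in the NK cell-depleted library (132 of 3044, 3.64 to 5.12). The NK cell-depleted library gave 14.8% of conventional DC-like cells (55 of 372), 14.7% of T-like cells (21 of 143) and 19.5% of melanoma-like cells (52 of 266). Only 2 and 17 neutrophil-like cells reached 2000 UMIs. At 1000 UMIs, neutrophil-like cells held 3 or more members in 0 of 264 control cells (a count that leaves room for at most 1.14%) and in 1 of 389 NK cell-depleted cells (0.257%), against 3.59% and 2.29% of monocyte/macrophage-like cells. T-like cells were not set apart from the latter at this depth, with 4.00% in the control library (11 of 275, 2.01 to 7.04) and 3.79% in the NK cell-depleted library (8 of 211, 1.65 to 7.33). Control NK-like cells stood at 6.17% (32 of 519, 4.26 to 8.59). Conventional DC-like cells stood at 11.8% and 8.92%.

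**Figure D2:**
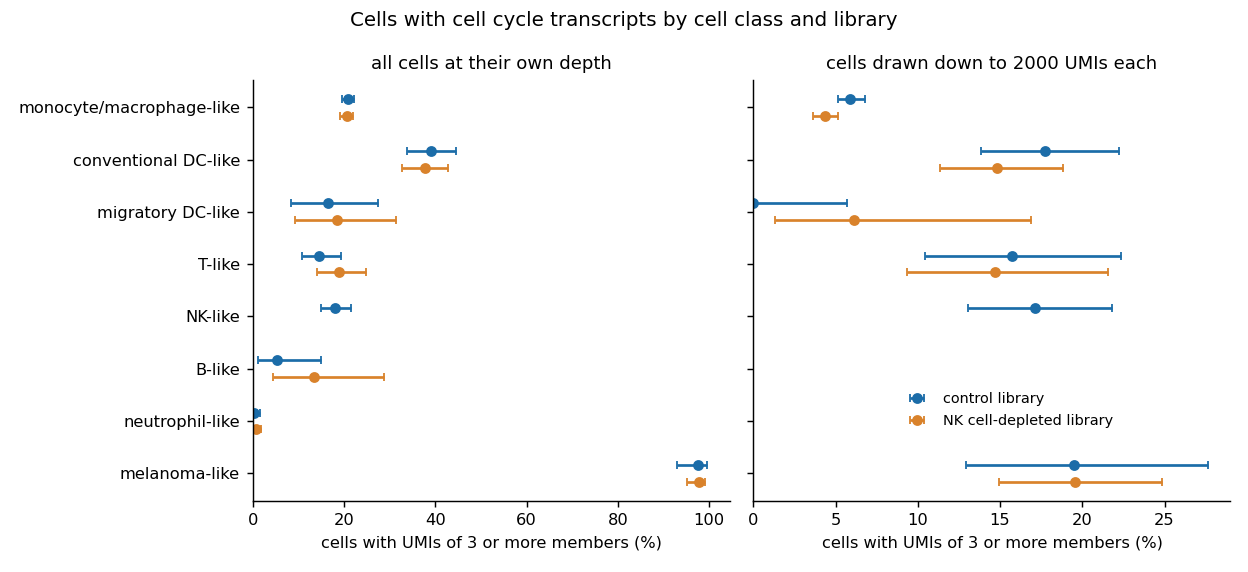
Share of cells with UMIs of 3 or more cell cycle members (%, horizontal axis) by cell class and library, at all depths and with every cell thinned to 2000 UMIs, with 95% Clopper-Pearson intervals. Monocyte/macrophage-like cells fall from 20.9% and 20.6% to 5.90% and 4.34% on thinning, under the conventional DC-like, T-like and NK-like cells. Thinning left out cells under 2000 UMIs, a larger part of control NK-like and of T-like cells than of monocyte/macrophage-like cells.

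Read as levels over all 48 members, the order of the classes was much the same. The members took 1647 of every 1000000 UMIs (CPM) in NK-like cells, 1548 in conventional DC-like cells, 1519 in melanoma-like cells and 1347 in T-like cells. They took 637 CPM in monocyte/macrophage-like cells, 581 in B-like cells, 416 in migratory DC-like cells and 249 in neutrophil-like cells. The 88 eosinophil-like cells stood at 794 CPM, and 1 of the 17 control ones held 17 members. In neutrophil-like cells 119 of the 260 member UMIs were of the kinesin gene *Kif23*, 42 of *Cenpa* and 33 of *Pcna*, and no cell held more than 3 members. The 93 B-like cells (3 of 56 and 5 of 37 with 3 or more members) and 121 migratory DC-like cells (11 of 67 and 10 of 54) were too few for more than these values.

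Not every member marked a cell with many members. *Pcna*, the sliding clamp of DNA polymerases, which also serves in DNA repair, had a UMI in 3375 cells, of which 45.9% held 3 or more members (itself counted), and *Cenpa*, the histone H3 variant of centromeres, in 1970 cells, of which 48.5% did. *Plk1*, the Polo kinase, was seen in 126 cells and *Ccnb1*, cyclin B1, in 178 cells, of which 94.4% and 97.2% did. *Stmn1*, a microtubule destabilizer, lay between them, with 1053 cells and 82.8%.

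Between the libraries, the share of monocyte/macrophage-like cells with 3 or more members was alike at all depths, with a ratio of control to NK cell-depleted of 1.01 (0.912 to 1.13). For 5 or more members at all depths the ratio was 1.09 (0.913 to 1.30), whereas for 10 or more members the libraries differed beyond counting error. Cells with 10 or more members were 131 of 3608 in the control library (3.63%) and 84 of 3285 in the NK cell-depleted library (2.56%), a ratio of 1.42 (1.07 to 1.89). With cells thinned to 2000 UMIs the ratio was 1.36 (1.08 to 1.71) for 3 or more members and 1.73 (1.24 to 2.43) for 5 or more. For 2 or more members at 2000 UMIs it was 1.04 (0.909 to 1.19), an interval that held 1. At 1000 UMIs the ratio for 3 or more was 1.56 (1.16 to 2.11). Unthinned, the NK cell-depleted cells were the deeper ones, with medians of 5571 and 5151.5 UMIs. For conventional DC-like cells every interval of the ratio held 1: 1.04 (0.814 to 1.32) at all depths, 1.20 (0.82 to 1.76) at 2000 UMIs and 1.53 (0.94 to 2.51) for 5 or more members at 2000 UMIs. T-like cells gave a ratio of 0.77 (0.49 to 1.21) at all depths and of 1.07 (0.58 to 2.01) at 2000 UMIs, both with intervals that held 1.

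The monocyte/macrophage-like class was made up of 10 clusters, and different clusters held most of it in each library. Cluster 0, led by *Pf4* and *Arg1*, held 25.2% of the class in the control library and 12.0% in the NK cell-depleted library, while cluster 1, led by the monocyte gene *Ly6c2*, held 8.76% and 20.3%. When the clusters were weighted alike across libraries, the ratio of the unthinned shares was 1.04, against 1.01 without weights. The thinned shares were not weighted in this way, so the value does not bear on the gap seen after thinning. Cluster 13, led by *Retnla* and *Lyz1*, stood out: thinned to 2000 UMIs, 27.5% of its control cells (38 of 138) and 14.6% of its NK cell-depleted cells (31 of 212) held 3 or more members, a ratio of 1.88 (1.14 to 3.13), and unthinned it gave 59.4% and 52.1%, a ratio of 1.14 (0.85 to 1.53). For 2 or more members at 2000 UMIs its ratio was 1.45 (0.98 to 2.16), an interval that held 1. The 48 members stood at 2025 CPM in its control cells and at 1192 CPM in its NK cell-depleted cells. Cells with 10 or more members were 41 of its control cells (29.7%) and 23 of its NK cell-depleted cells (10.8%), and they were 41 of the 131 such control cells of the whole class.

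Cluster 2, led by *Ccl8*, *Gas6* and *Lyve1*, genes known from resident tissue macrophages, gave 9.81% (36 of 367) and 4.32% (23 of 532) after thinning, a ratio of 2.27 (1.31 to 4.01). This gap was not there unthinned, where the cluster gave 34.2% and 34.6%, a ratio of 0.99 (0.78 to 1.25). For 2 or more members after thinning its ratio was 1.33 (0.96 to 1.84), an interval that held 1. Cluster 6, led by *Slc7a2*, *Dcstamp* and *Mmp12*, gave 7.79% and 8.43%, and cluster 3, led by *Htra3* and *Spint1*, gave 6.92% and 6.27%, within counting error of each other. Unthinned, cluster 3 gave 22.8% and 14.4%, a ratio of 1.58 (1.10 to 2.31). Cluster 0 gave 2.36% and 2.89% and cluster 1 gave 3.21% and 1.51%. The lowest control share was in cluster 5, led by *Ace* and *Chil3*, with 0.84% and 2.14%. Its unthinned shares were 4.76% and 9.70%, a ratio of 0.49 (0.24 to 0.94), the one unthinned ratio under 1 among the 10 clusters whose interval did not hold 1. No cell of cluster 5 held 10 or more members in either library.

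**Figure D3:**
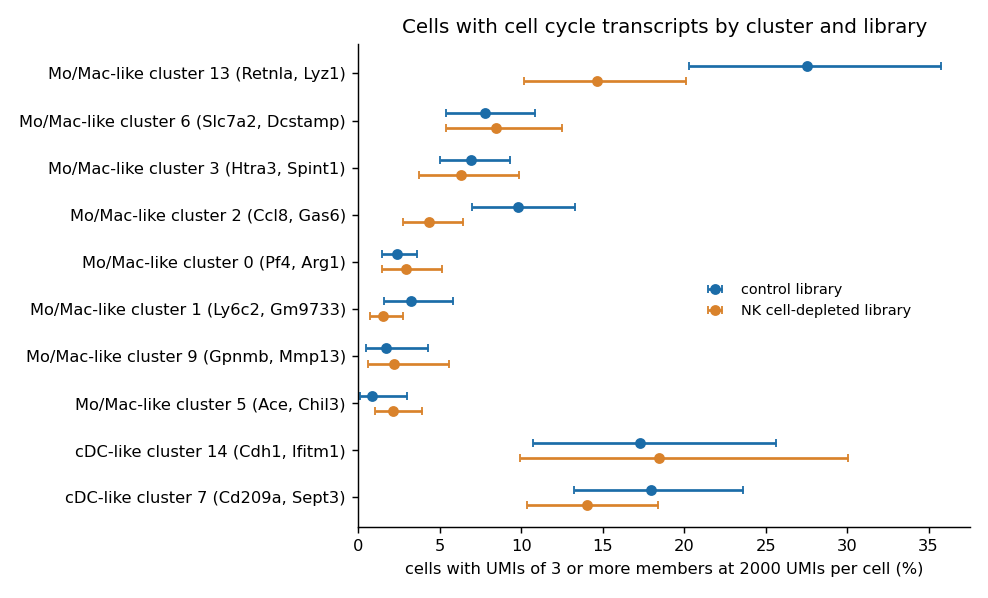
Share of cells with UMIs of 3 or more members (%, horizontal axis) in the monocyte/macrophage-like and conventional DC-like clusters with 100 or more control and 50 or more NK cell-depleted cells after thinning to 2000 UMIs, by library, with 95% Clopper-Pearson intervals. Cluster 13 (27.5% and 14.6%) and cluster 2 (9.81% and 4.32%) show the wider gaps between the libraries among the monocyte/macrophage-like clusters drawn.

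The balance of S phase and mitosis transcripts differed by class. The 28 mitosis members held 47.4% of the phase UMIs of control monocyte/macrophage-like cells (46.6 to 48.2) and 41.2% of those of NK cell-depleted ones (40.3 to 42.1). The S phase members stood at 341.7 and 318.4 CPM in that class and the mitosis members at 308.0 and 223.1 CPM, so most of the gap in these sums lay on the mitosis side. The S phase sum holds *Pcna*, the S phase member with the most UMIs, which was lower in the control library. Of the 19 S phase members 17 were higher there. Their median log2 ratio of control to NK cell-depleted CPM was 0.41, against 0.64 for the mitosis members. The 5 cells with the most member UMIs held 8.07% of the member UMIs of this class in the control library and 14.8% in the NK cell-depleted library. Without them the mitosis share was 45.7% and 34.4%. Conventional DC-like cells leaned to mitosis, with 54.1% (52.4 to 55.7) and 55.7% (54.0 to 57.4), and without the 5 cells with the most member UMIs the shares were 47.9% and 46.7%. NK-like cells of the control library stood at 46.9% (44.7 to 49.1). Melanoma-like cells stood at 76.7% and 73.8%. T-like cells stood at 64.4% and 45.1%, and 5 cells held 53.8% and 51.4% of their member UMIs.

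Sorted cell by cell, after thinning to 2000 UMIs, 193 of 3273 control monocyte/macrophage-like cells held 2 or more S phase members and fewer than 2 mitosis members, 68 held the opposite and 66 held both. The NK cell-depleted library gave 180, 51 and 31 of 3044 cells. Cells with both kinds thus showed the wider gap at this depth. Unthinned, the 3 kinds were 18.9%, 4.35% and 5.79% of control cells and 21.8%, 4.78% and 5.45% of NK cell-depleted cells, without that gap. Among control conventional DC-like cells 39, 9 and 27 of 338 fell in these 3 kinds, and among control NK-like cells 51, 16 and 15 of 304.

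**Figure D4:**
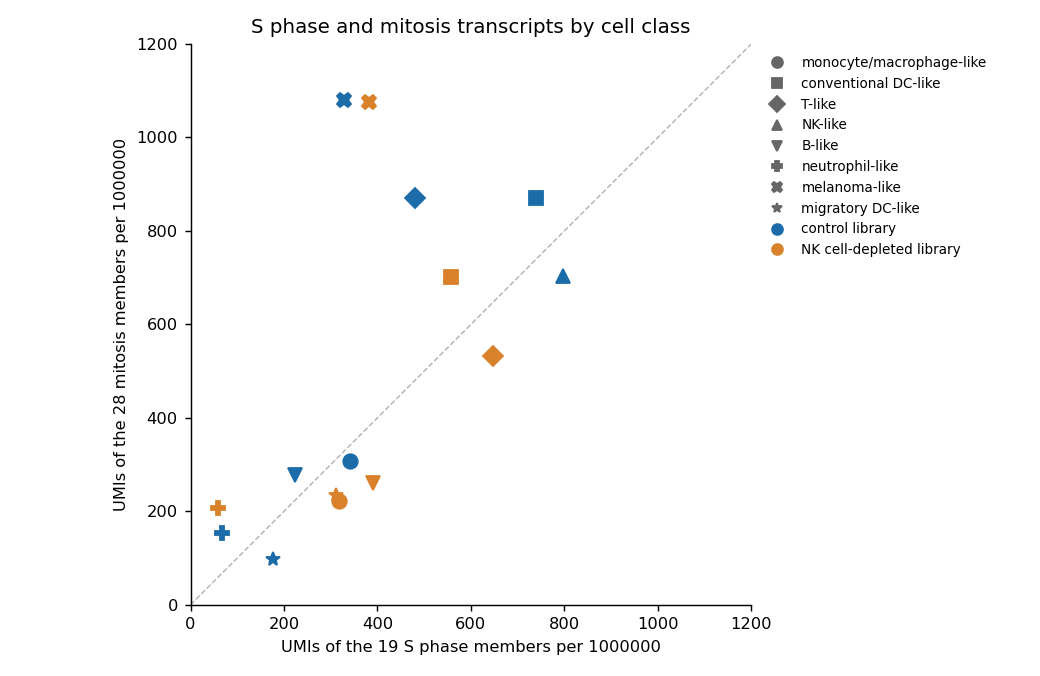
CPM of the 19 S phase members (horizontal axis) and of the 28 mitosis members (vertical axis), 1 point per cell class and library, with a dashed line where both are equal. Monocyte/macrophage-like cells stand at 341.7 and 318.4 CPM for S phase and 308.0 and 223.1 CPM for mitosis, and melanoma-like cells lean to mitosis in both libraries.

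Gene by gene, the UMIs of a class were summed per library and compared as the log2 ratio of control to NK cell-depleted CPM, after 0.5 UMI was added to each. Genes were counted as past 1.5-fold when the ratio was at least that large and the counting interval did not hold 1. The interval treats each UMI as a separate draw. The UMIs of a gene can lie in few cells, and the interval does not cover that spread between cells. In monocyte/macrophage-like cells 23 of the 48 members were past 1.5-fold higher in the control library and 0 were lower, against 6.07% and 2.90% of the 12015 genes with 20 or more UMIs, and all 48 members had that many. The median log2 ratio of the members was 0.56, against -0.01 over all genes, and 45 of 48 were above 0. The mitosis members had a median of 0.64 and the S phase members of 0.41. With cells thinned to 2000 UMIs the median was 0.36 and 13 members were past 1.5-fold higher, and with cells classed one by one from the marker lists 15 were.

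Of the 12 role groups, the genes of mitotic chromosomes showed the widest gap. *Mki67* (ENSMUSG00000031004), which coats mitotic chromosomes and is the usual proliferation marker, had 655 UMIs in 170 control cells and 305 UMIs in 108 NK cell-depleted cells, a log2 ratio of 1.08 (0.88 to 1.28). *Top2a* (ENSMUSG00000020914), the topoisomerase that untangles sister chromatids, had 788 UMIs in 195 cells and 492 UMIs in 149 cells, a log2 ratio of 0.65. Together they had a control to NK cell-depleted ratio of 1.78 (1.63 to 1.94). Both genes were lower in the NK cell-depleted library in UMIs as well as in cells.

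Mitotic kinases and the chromosomal passenger complex gave a summed ratio of 1.65 (1.47 to 1.85). *Birc5* (ENSMUSG00000017716), survivin, had 298 UMIs in 108 control cells and 144 UMIs in 49 NK cell-depleted cells, a log2 ratio of 1.02 (0.73 to 1.32). *Cdca8*, which encodes borealin, had 210 and 131 UMIs, and *Aurkb*, the kinase of the complex, 145 and 91, and all of them were past 1.5-fold. *Plk1*, at a log2 ratio of 0.53, was not.

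Cyclins and checkpoint genes moved less as groups. *Ccna2*, cyclin A2, had 177 UMIs in 72 control cells and 111 UMIs in 35 NK cell-depleted cells, past 1.5-fold at 0.64, whereas *Ccnb2*, cyclin B2, had 142 and 147 UMIs, a log2 ratio of -0.08. *Cdk1* had 138 and 105 UMIs and *Ccnb1* 65 and 47, neither past 1.5-fold. Of the anaphase-promoting complex and spindle checkpoint genes, *Ube2c*, its ubiquitin-conjugating enzyme, had 318 and 272 UMIs and *Cdc20*, its activator, 60 and 49. *Bub1*, a checkpoint kinase, had 93 and 56 and was past 1.5-fold at 0.70.

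Among spindle and kinetochore genes, *Cenpe* (ENSMUSG00000045328), the kinesin that carries chromosomes to the metaphase plate, had 189 UMIs in 78 control cells and 92 UMIs in 34 NK cell-depleted cells, a log2 ratio of 1.01 (0.65 to 1.39). *Cenpa* (ENSMUSG00000029177) was level at 1124 and 1089 UMIs, a log2 ratio of 0.02. *Cenpf* fell just outside the threshold with 227 and 149 UMIs (1.49-fold). The spindle genes *Nusap1* (141 and 78 UMIs), *Hmmr* (108 and 62), *Tpx2* (174 and 103), *Kif11* (125 and 75), *Kif20a* (54 and 31) and *Prc1* were past 1.5-fold with log2 ratios between 0.66 and 0.82, and *Cdca3*, which promotes entry into mitosis, was too, with 176 and 104 UMIs. *Kif23*, which serves in cytokinesis, was not, with 288 and 252 UMIs. The remaining mitosis members *Aurka*, *Bub1b*, *Ckap2l* and *Racgap1* had log2 ratios between 0.12 and 0.28 and were not past 1.5-fold either.

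S phase genes split by role. The origin licensing and helicase genes were close to level as a group (1.14, 1.09 to 1.20): *Mcm3* had 825 and 694 UMIs, *Mcm6* 558 and 517, *Mcm5* 469 and 468, and *Mcm2* 325 and 287. Within this group the licensing loader *Cdc6*, with 123 UMIs in 88 control cells and 68 UMIs in 57 NK cell-depleted cells, was past 1.5-fold at 0.82. For nucleotide supply, *Tk1* (ENSMUSG00000025574), thymidine kinase, had 109 UMIs in 61 control cells and 50 UMIs in 34 NK cell-depleted cells, the highest log2 ratio among the 48 members at 1.09 (0.60 to 1.61). *Tyms*, thymidylate synthase, had 118 and 72 UMIs and *Dut*, the dUTPase, 338 and 220, both past 1.5-fold, while the reductase subunits *Rrm1* (658 and 573) and *Rrm2* (207 and 139) were not. *Ccne2*, cyclin E2, had 72 and 39 UMIs, *Uhrf1*, which maintains DNA methylation behind the fork, 218 and 136, and the checkpoint adaptor *Clspn* 127 and 78, all past 1.5-fold. The remaining S phase members *Mcm4*, *Mcm7*, *Gins2*, *Ccne1* and *Fen1* lay between 0.07 and 0.44 and were not.

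*Pcna* (ENSMUSG00000027342) went the other way. It had 1865 UMIs in 1170 control cells (32.4%) and 2321 UMIs in 1375 NK cell-depleted cells (41.9%), a log2 ratio of -0.34 (-0.43 to -0.25), the lowest among the 48 members and the only one whose interval lay below 0. *Stmn1* (ENSMUSG00000028832) had 1064 UMIs in 322 control cells and 654 UMIs in 218 NK cell-depleted cells, a log2 ratio of 0.68 (0.53 to 0.82). Without *Stmn1*, *Dut* and *Pcna*, which resting cells can hold too, 14.2% and 13.2% of monocyte/macrophage-like cells held 3 or more members, a ratio of 1.08.

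**Figure D5:**
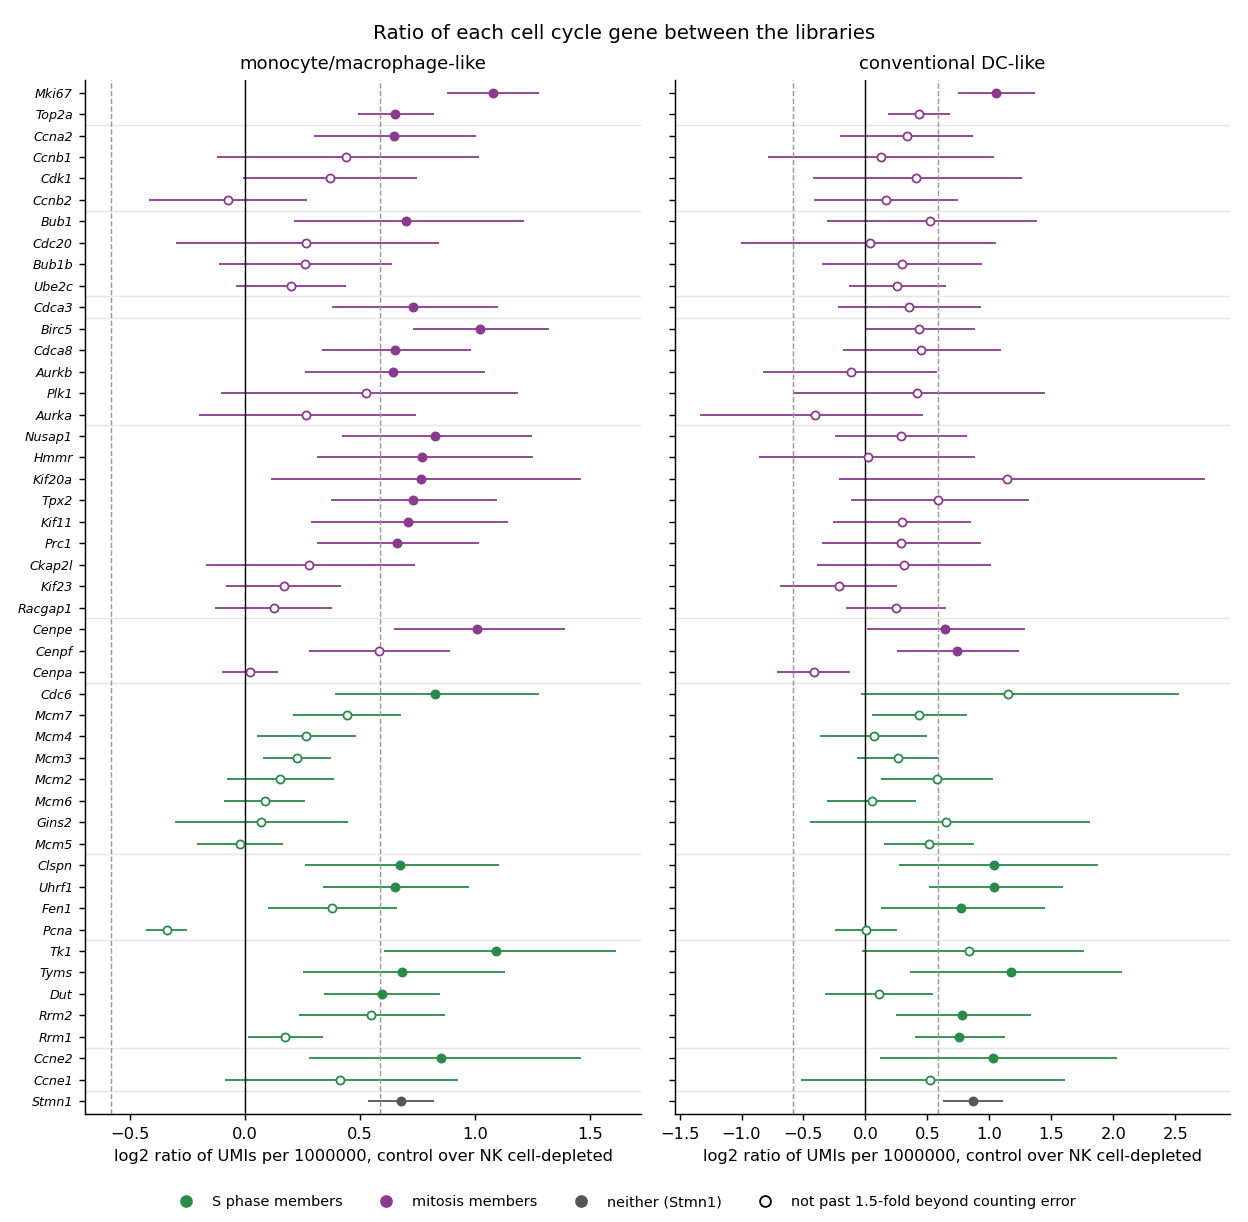
Log2 ratio of control to NK cell-depleted CPM (horizontal axis) for each member in monocyte/macrophage-like and conventional DC-like cells, with 95% counting intervals, members grouped by role, filled points past 1.5-fold and dashed lines at 1.5-fold. In monocyte/macrophage-like cells 45 of 48 members lie above 0, from -0.34 (*Pcna*) to 1.09 (*Tk1*).

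The libraries differed in other transcripts within the same cells. Among monocyte/macrophage-like cells with 3 or more members, the 9 NK markers summed to 91.1 CPM in the control library, where all 9 were seen, and to 1.68 CPM in the NK cell-depleted library, where *Ncr1*, *Eomes*, *Klra8*, *Klra9* and *Gzma* were at 0. The 5 erythroid markers summed to 5.41 and 424 CPM, the 12 T cell markers to 51.3 and 30.0 CPM and the 9 B cell markers to 112 and 129 CPM. The 10 melanoma markers summed to 67.4 and 74.7 CPM, with *Sox10* and *Mlana* at 0. These 2 genes and *Pmel* were also at 0 in melanoma-like cells with 3 or more members of both libraries. Their lack in monocyte/macrophage-like cells therefore says nothing about melanoma transcripts there. In monocyte/macrophage-like cells with no member the NK markers summed to 8.86 and 0.29 CPM and the erythroid markers to 3.83 and 1.47 CPM. Their T cell markers summed to 31.6 and 20.3 CPM, their B cell markers to 100 and 142 CPM and their melanoma markers to 72.3 and 54.7 CPM. Control NK markers and NK cell-depleted erythroid markers thus stood far higher in cells with 3 or more members. The cause was not tested. Cells with 2 or more melanoma markers were 20 of 753 control cells with 3 or more members (2.66%) and 33 of 677 NK cell-depleted ones (4.87%), against 1.19% and 1.15% of cells with fewer. Leaving out the 115 and 81 monocyte/macrophage-like cells that held markers of another class gave a median log2 ratio of 0.65, with 27 members past 1.5-fold higher and 0 lower. Without cluster 13 the median was 0.60, with 25 members higher, and without the 5 cells with the most member UMIs it was 0.80, with 31 members higher.

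Cell cycle genes outside the 48 were read from 6 further lists with 124 genes, and their counts stand against the same 6.07% and 2.90% of all genes. In monocyte/macrophage-like cells 13 of 45 other G2 and mitosis genes were past 1.5-fold higher in the control library and 0 lower, with a median log2 ratio of 0.39, among them *Cit*, the citron kinase of cytokinesis (1.23), *Shcbp1*, *Kif15* and *Kif4*. Of 28 other S phase genes 5 were higher and 0 lower, with a median of 0.36, among them *Gmnn*, *Cdc45*, *Mcm10* and *Hells*. Of 14 cell cycle transcription factors *E2f6*, *E2f7*, *Foxm1* (70 and 42 UMIs) and *Mybl2*, which encodes B-Myb (37 and 19 UMIs), were higher. Of 14 chromatin and tubulin genes 1, *Hmgn2*, was higher, a share near that of all genes. The lists of inhibitors and pocket proteins and of D-type cyclins, kinases and activators held no gene past 1.5-fold higher. In lists this short that is near the share of all genes. Of 10 inhibitors and pocket proteins with enough UMIs 0 were past 1.5-fold in either direction (median -0.09), with 13562 and 12808 UMIs for the p21 gene *Cdkn1a*. Of 11 D-type cyclins, kinases and activators *Ccnd3*, cyclin D3, was lower in the control library, with 1196 and 1803 UMIs (-0.62).

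Within the monocyte/macrophage-like class, cells with 3 or more members were compared with cells that held none. The former were deeper, with medians of 8308 against 3657 UMIs in the control library and 8921 against 4099 in the NK cell-depleted library, and the part of depth in what follows was not tested. Of all genes tested in this way 11.2% and 12.4% were 1.5-fold or more higher in the former. Among the lists that the choice of cells did not use, 25 of 26 other S phase genes were 1.5-fold or more higher in the control library (median log2 ratio 2.05) and 23 of 25 in the NK cell-depleted library (1.51), and of other G2 and mitosis genes 41 of 44 (2.98) and 38 of 44 (2.72). The inhibitors and pocket proteins had medians of -0.19 and -0.04.

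Outside all of these lists, the 10 genes with the largest ratios in both libraries included *Pclaf*, *Sgo2a*, *Spag5*, *Pimreg*, *Knl1*, *Diaph3*, *Brip1* and *Pkmyt1*. *Pclaf*, which encodes a PCNA-binding factor, stood at 83.5 CPM in control cells with 3 or more members and 0.72 CPM in those with none, and at 40.3 CPM in NK cell-depleted cells with 3 or more, where cells with none had 0 UMIs. *Brip1* encodes a helicase of DNA repair, *Sgo2a* and *Knl1* serve in chromosome cohesion and at the kinetochore, and *Pkmyt1* is an inhibitory kinase of Cdk1. *Sgo2a* had 46 UMIs in control cells with 3 or more members and 0 in cells with none, and 35 and 0 in the NK cell-depleted library.

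Conventional DC-like cells, which held 12.8% of all member UMIs in 722 cells, leaned to the control library as well. Past 1.5-fold higher were 11 of 48 members and 0 were lower, against 4.87% and 4.45% of 9239 genes, with a median log2 ratio of 0.43. S phase members stood at a median of 0.65 and mitosis members at 0.30. The class was made up of cluster 7, led by *Cd209a*, and cluster 14, led by *Cdh1*, and cluster 14 held 32.4% of its control cells and 17.0% of its NK cell-depleted cells. With both clusters weighted alike the median was 0.22. *Mki67* had 246 UMIs in 47 control cells and 135 UMIs in 36 NK cell-depleted cells, a log2 ratio of 1.05 (0.75 to 1.37). *Stmn1* had 369 and 231 UMIs (0.87), *Uhrf1* 85 and 47 (1.04), *Tyms* 38 and 19 (1.17), *Rrm1* 160 and 108 (0.76) and *Rrm2* 74 and 49 (0.78), and *Clspn*, *Ccne2*, *Fen1*, *Cenpf* and *Cenpe* were also past 1.5-fold. *Cenpa* was the lowest with 160 and 244 UMIs, a log2 ratio of -0.42 (-0.71 to -0.12). Under the upper limits on cells that the authors set (15000 UMIs and 4000 genes) the median was 0.063, that of the mitosis members was -0.12, 23 of 45 members were above 0 and 3 were past 1.5-fold higher. With cells thinned to 2000 UMIs 4 members were past 1.5-fold higher and 1 lower. The 5 cells with the most member UMIs held 23.2% and 21.3% of the member UMIs here.

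T-like cells had 904 and 702 member UMIs, of which 5 cells held 53.8% and 51.4%. Of 23 members with 20 or more UMIs 5 were past 1.5-fold higher in the control library and 3 lower, against 5.52% and 4.38% of 6600 genes. *Mki67* had 75 UMIs in 18 control cells and 32 UMIs in 9 NK cell-depleted cells (1.01), and *Top2a*, *Kif11*, *Cenpf* and *Rrm2* were the other higher ones. *Pcna* (53 and 89 UMIs, -0.95), *Mcm3* (15 and 33, -1.32) and *Mcm7* (15 and 27, -1.03) were lower. *Cenpf* rested on 4 and 1 cells. Among T-like cells with 3 or more members, the 7 mast cell markers summed to 1835 CPM in the control library, where 6 were seen, and to 25.9 CPM in the NK cell-depleted library, where 1 was seen. The 4 basophil markers summed to 129 and 0 CPM, and the monocyte/macrophage markers to 1513 and 707 CPM. Without the 1 control cell that held 3 or more mast cell or basophil markers, 5 members were past 1.5-fold higher and 3 lower. That cell held 3 of the 904 member UMIs, so leaving it out could change little.

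In melanoma-like cells the members did not lean to the control library. *Ccne1*, cyclin E1 (27 and 25 UMIs, 0.99), was the single member past 1.5-fold higher, and *Mcm4* (8 and 38 UMIs, -1.30) and *Mcm5* (24 and 91 UMIs, -1.02) were lower, against 1.33% and 4.99% of 10852 genes. The median log2 ratio was -0.12, against -0.16 over all genes. *Mki67* had 291 and 421 UMIs (0.35) and *Ube2c* 591 and 1086 UMIs (0.00). Tumor cells of the *Ptgs*-/- line and the added parental cells cannot be told apart in this class. Melanoma-like cells held 66.0% of all *Cdc20* UMIs and 65.3% of all *Cdk1* UMIs but 4.2% of *Mcm4* and 7.9% of *Mcm5* UMIs.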

How the data were processed

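The authors sorted live CD45+ cells, loaded 16000 per 10x Genomics channel and made 3′ libraries with 11 cycles of cDNA amplification. Per the labels, bcl2fastq and Cell Ranger were used with mm10; the version in the matrix headers is Cell Ranger 3.0.2. The files deposited by the authors that were used here hold raw UMI counts per gene and cell, 1 matrix per sample. Nothing was normalized in them. The study's t-SNE and its cell names were not used here.

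Of 11651 cells called, the 10363 with 500 or more UMIs, 200 or more genes and at most 10% mitochondrial UMIs were kept, with no upper limits. Clustering (log-scaled counts, scikit-learn 1.9.0 components, leidenalg 0.10.2 at resolution 1) left out mitochondrial and 172 cell cycle genes. Clusters were named from marker lists. The thresholds for a name were set after the clusters were seen, 2 clusters stayed unnamed, and these rebuilt names may be why a value differs from the study. Scrublet (scanpy 1.11.5) marked 1.20% and 0.123% of cells. In the second library it marked too few to have worked, so no cell was removed for it, and a fit without its calls was an alternative.

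Each class had its UMIs summed by library and scaled to 1000000 (CPM). No test was possible with single libraries. Ratios carry exact conditional binomial intervals, shares Clopper-Pearson intervals, both at 95% and for counting error only; a count of 0 is given its limit of 3 counts. Log2 ratios needed 20 UMIs over both libraries. The ratio step was tested on simulated counts drawn independently for each gene. That setting lacks the clumping of member UMIs in few cells seen here, so it does not test the intervals under it. The members and lists were chosen with earlier results of these data known. Named are the members with the most UMIs in each role, those past 1.5-fold, the genes of 6 fixed lists, and the 10 other genes with the largest ratio between cells with 3 or more members and none. A few other members were named as contrast after their values were seen, and some genes that the rule names are not reported here. Thinning drew UMIs without replacement with a fixed seed. Promoters are from RefSeq, GRCm38.p6. Python 3.11.15, numpy 2.4.6, pandas 2.3.3 and scipy 1.17.1 were used.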

Additional observations from a re-analysis of the deposited data

Results flagged for a closer look

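The S phase members of T-like cells had a median log2 ratio of control to NK cell-depleted of -0.53, where those of monocyte/macrophage-like cells had 0.41. It drew attention because the same contrast had opposite signs in 2 cell classes. The difference was not tested, since each group was 1 library, and in T-like cells 11 S phase members had enough UMIs and 5 cells held 53.8% and 51.4% of the member UMIs.

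The members of melanoma-like cells had a median log2 ratio of -0.12, where those of monocyte/macrophage-like cells had 0.56. The medians over all genes were -0.16 and -0.01 in these classes. This difference was not tested either.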

How the results depend on the processing

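No paired analysis was possible because each group was 1 library. The median log2 ratio of all members kept its sign in monocyte/macrophage-like and conventional DC-like cells under every alternative run. For T-like cells the only alternative left out 1 cell with 3 member UMIs, so it could not show whether the sign is stable. The lean of conventional DC-like cells to mitosis did not hold under every alternative, as the values below show. The median of their mitosis members changed sign under the upper limits of the authors. Monocyte/macrophage-like and conventional DC-like values follow in the order control, NK cell-depleted. The share of monocyte/macrophage-like cells with 3 or more members was 40.3% and 43.3% with 2 members required, 8.01% and 7.37% with 5, 5.90% and 4.34% thinned to 2000 UMIs, 3.59% and 2.29% thinned to 1000, 19.3% and 18.8% under the upper limits of the authors, 14.2% and 13.2% without *Stmn1*, *Dut* and *Pcna*, and 19.3% and 18.4% without cluster 13. Its ratio was 1.36 and 1.56 at 2000 and 1000 UMIs and lay between 0.93 and 1.09 under the other alternatives. For conventional DC-like cells the shares were 53.5% and 58.1% with 2 members, 22.9% and 20.7% with 5, 17.8% and 14.8% at 2000 UMIs, 11.8% and 8.92% at 1000, and 30.6% and 29.6% without the 3 genes, and their ratio lay between 0.92 and 1.32.

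The mitosis share of monocyte/macrophage-like cells was 44.9% and 38.8% thinned to 2000 UMIs, 44.5% and 35.6% under the upper limits, 50.1% and 45.2% without *Pcna* and *Cenpa*, 50.7% and 45.6% in cells with 3 or more members, 45.7% and 34.4% without the 5 cells with most member UMIs, and 38.6% in the NK cell-depleted library without cells with markers of other classes. In conventional DC-like cells it was 51.0% (NK cell-depleted, thinned), 47.5% and 52.7% (upper limits), 56.0% and 57.6% (without *Pcna* and *Cenpa*), 47.9% and 46.7% (without the 5 cells) and 58.6% (NK cell-depleted, clusters at the same weight).

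In monocyte/macrophage-like cells the median log2 ratio was 0.80 without the 5 cells and 0.36 thinned to 2000 UMIs, and 15 members (cells classed one by one) and 13 members (thinned) were past 1.5-fold higher. In conventional DC-like cells the median was 0.063 (upper limits) and 0.22 (clusters at the same weight), 3 members (upper limits) and 4 members (thinned) were higher, and 1 was lower with clusters at the same weight and 1 when thinned. The cause was not tested for any of these. The fits without cells with markers of other classes, without cluster 13, at the same cluster weight for shares, and thinned for gene ratios were chosen after seeing the data. So was the fit of T-like cells without mast cell or basophil markers. It left out 1 cell with 3 member UMIs and moved no count of members past 1.5-fold.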
